A study of Mus musculus with 6 samples.

Results

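The CBX and PHC subunits of Polycomb repressive complex 1 (PRC1) were followed at the mRNA level in 6 libraries of cultured mouse pro-B cells. The 7 genes, Cbx2, Cbx6, Cbx7, Cbx8, Phc1, Phc2 and Phc3, were chosen by name and not by their values, out of 22551 gene symbols in the table. Each had 1 row. Bone marrow had been grown in methylcellulose medium for B cells, and the colonies were collected at 1 week, at passage 1. By title, 3 libraries came from Ts1Rhr mice, which carry an engineered extra copy of a segment of chromosome 16, and 3 from wild-type mice. The genotype field reads Ts1Rhr for all 6. The value columns are headed A1, A2, A3, C1, C2 and C3 after a prefix for the passage, and no source used here says which letter is which genotype. No column was therefore given a genotype, no comparison of Ts1Rhr with wild-type was made, and the 6 libraries are described together as passage 1 pro-B cultures. None of the 7 genes lies on chromosome 16. The spread over libraries given here can hold genotype, culture and library preparation at once.

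PRC1 is a histone-modifying complex that marks and compacts silenced chromatin. In its canonical form, a RING1 or RNF2 catalytic subunit and a PCGF protein are joined by a CBX and a PHC subunit. The chromodomain of the Polycomb CBX proteins reads trimethylated lysine 27 of histone H3, the mark laid down by PRC2, and so brings the complex to PRC2 targets. The PHC proteins, homologs of Drosophila polyhomeotic, carry a SAM domain that lets complexes join into larger assemblies. The title of the series names this histone mark.

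The cultures held more than pro-B cells. All 11 pro-B markers examined, among them Vpreb1, Pax5 and Rag1, were at 1 FPKM or more in every library, and their summed level ran over the libraries from 1435 to 2099 FPKM (sequenced fragments scaled to transcript length and to the fragments mapped in the library). All 6 myeloid markers were also at 1 FPKM or more in every library, with a summed level of 2633 to 4779 FPKM, most of it from the lysozyme gene Lyz2, at 2457 to 4437 FPKM. All 4 erythroid markers and all 4 T-cell markers were under 1 FPKM in every library. The mast and basophil list summed to 2.75 to 6.63 FPKM and the stromal list to 1.61 to 6.89 FPKM, over 4 markers each. Library A2 had both the lowest pro-B sum and the highest myeloid sum. Of the 11 pro-B markers, 9 were lowest in A2, while Il7r and Cd93 were highest there, at 98.0 and 92.8 FPKM. Across the 10302 gene symbols at 1 FPKM or more in every library, its log2 values correlated with those of the other libraries at r of 0.971 to 0.989, and the highest r of any other library was at least 0.990. In bulk RNA, fewer cells of a type and less RNA per cell cannot be told apart, and no level given here can be assigned to the pro-B or the myeloid cells.

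Cbx6 and Cbx2 were the most abundant of the 4 CBX members, Cbx7 was intermediate and Cbx8 was lowest. This order held in 6 of 6 libraries. Of the summed FPKM of the 4, Cbx6 made up a median of 41.7% and Cbx2 35.3%, against 15.5% for Cbx7 and 7.68% for Cbx8. These shares refer to the 4 members alone. FPKM values are scaled to transcript length, so that levels of different genes can be set side by side, within what the length models allow.

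Cbx6 encodes a chromodomain protein of the Polycomb group. Its level was 10.9 FPKM in A1, 9.29 in A2, 13.1 in A3, 12.5 in C1, 12.3 in C2 and 11.7 in C3. The values lay within 1.41-fold of each other, with A2 lowest and A3 highest. In the GENCODE annotation of GRCm38 the gene lies on chromosome 15 from 79823896 to 79834688, on the minus strand. A neighbouring protein-coding model on the same strand, Npcd, overlaps it over 10342 of its 10793 bases, so reads there could be divided between the 2 rows. Npcd itself was at no more than 0.191 FPKM in any library.

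Cbx2 encodes a CBX protein known for compacting nucleosomes. Its level was 9.42 FPKM in A1, 6.86 in A2, 11.5 in A3, 10.4 in C1, 9.95 in C2 and 10.8 in C3. A2 stood below the other libraries: the highest value was 1.67-fold the lowest over all 6 libraries and 1.22-fold without A2. Cbx6 exceeded Cbx2 in 6 of 6 libraries, by 1.09-fold to 1.35-fold, although the ranges of the genes overlapped. The within-library difference was 0.25 ± 0.11 on the log2 scale (mean ± SD, n = 6, log2(FPKM + 0.1); exact paired permutation test, two-sided p = 0.03125). Of the 9 within-family pairs tested, this had the smallest difference.

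Cbx7, whose protein is the main Polycomb CBX subunit of mouse embryonic stem cells, had 4.25 FPKM in A1, 3.09 in A2, 5.20 in A3, 4.73 in C1, 4.30 in C2 and 4.13 in C3. Its 6 values all lay below those of Cbx2. Cbx2 exceeded it by 2.20-fold to 2.60-fold within a library, a log2 difference of 1.18 ± 0.09 (mean ± SD, n = 6, exact paired permutation p = 0.03125). This ratio was the steadiest of the 9. At its 3′ end Cbx7 (chromosome 15, 79915807 to 79971119, minus strand) shares 100 bases with the opposite-strand gene Apobec3, which was at 44.1 to 56.8 FPKM. The sources used here do not say that counting used strand, so reads in that overlap cannot be told apart. Cbx6 lies 81.1 kb from Cbx7 on the same strand.

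Cbx8 was the least abundant member. It had 2.08 FPKM in A1, 1.82 in A2, 2.74 in A3, 1.87 in C1, 2.17 in C2 and 1.89 in C3, and A3 was highest. Cbx7 exceeded it in every library, with a log2 difference of 1.00 ± 0.19 (mean ± SD, n = 6, exact paired permutation p = 0.03125). Cbx6 was 4.79-fold to 6.71-fold higher than Cbx8. Cbx8 (chromosome 11, 119036305 to 119040969, minus strand) lies 5.03 kb from Cbx2 (119022962 to 119031270, plus strand). These 2 neighbours thus differed by 3.77-fold to 5.69-fold in the same libraries.

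**Figure D1:**
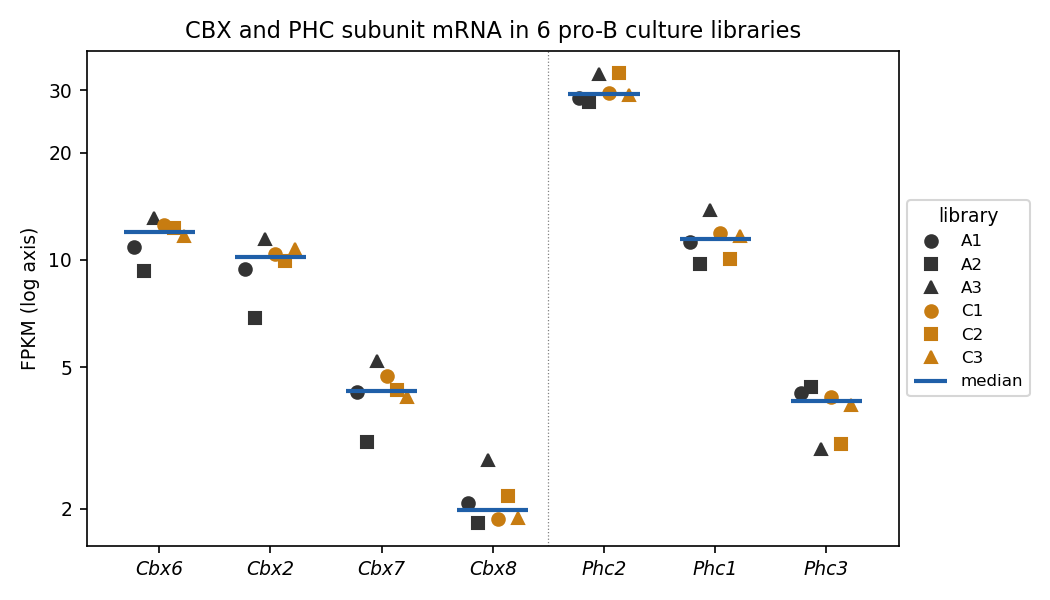
FPKM (log axis) of the 4 CBX and 3 PHC genes in each of 6 libraries. Points are libraries, coloured by the column letter, whose meaning is not given, and shaped by the column number. Lines are medians, from 29.2 FPKM for Phc2 to 1.98 FPKM for Cbx8.

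**Figure D2:**
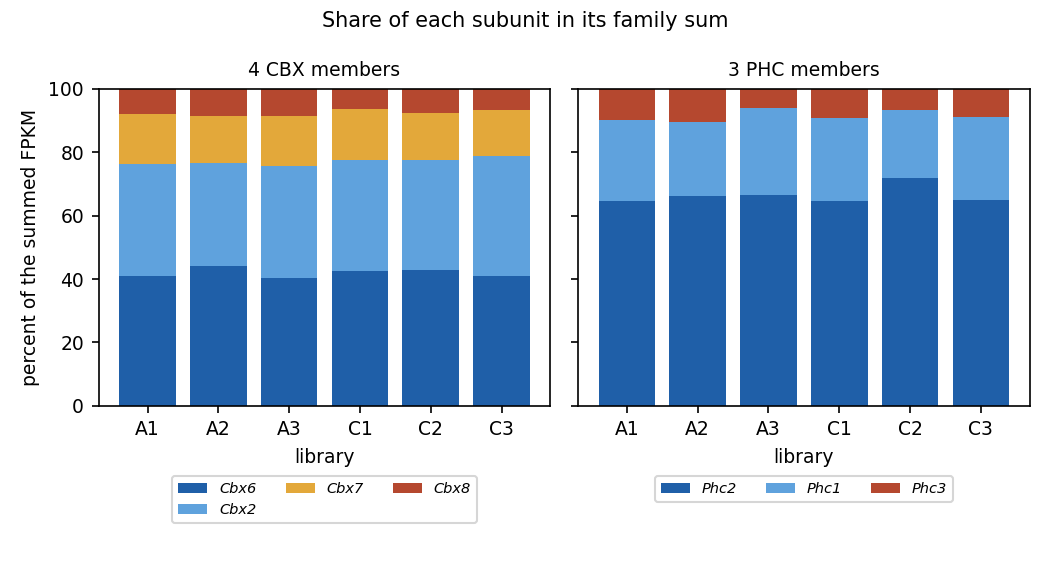
Percent of the summed FPKM of a family that each gene made up, by library, for the 4 CBX members and the 3 PHC members. Phc2 made up 64.8% to 71.9% of the PHC sum, while no CBX member made up more than 44.1% of the CBX sum.

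Among the polyhomeotic genes a single paralog dominated. Phc2 made up a median of 65.7% of the summed PHC FPKM, against 25.9% for Phc1 and 8.92% for Phc3, and the order Phc2, Phc1, Phc3 held in 6 of 6 libraries. The ranges of the 3 genes did not overlap. Summed PHC mRNA exceeded the summed mRNA of the 4 CBX members in each library, by 1.54-fold to 1.99-fold.

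Phc2 is known in mouse for its part in Hox repression. Its level was 28.4 FPKM in A1, 27.8 in A2, 33.4 in A3, 29.5 in C1, 33.5 in C2 and 29.0 in C3. The libraries A3 and C2 were higher than the other 4. The highest value was 1.20-fold the lowest, the least spread of the 7 members. Phc2 exceeded Phc1 by 2.41-fold to 3.34-fold, a log2 difference of 1.41 ± 0.18 (mean ± SD, n = 6, exact paired permutation p = 0.03125).

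Phc1, needed for Hox regulation in mouse embryos, had 11.2 FPKM in A1, 9.73 in A2, 13.8 in A3, 11.9 in C1, 10.0 in C2 and 11.7 in C3. A2 and C2 were lowest and A3 was highest, a 1.42-fold range. Phc1 exceeded Phc3 in every library, with a log2 difference of 1.58 ± 0.35 (mean ± SD, n = 6, exact paired permutation p = 0.03125). Phc1 lies on chromosome 6 from 122317731 to 122340561, on the minus strand, and no other annotated gene overlaps it.

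Phc3 had 4.23 FPKM in A1, 4.39 in A2, 2.95 in A3, 4.12 in C1, 3.03 in C2 and 3.91 in C3. It was lowest in A3 and C2, the libraries in which Phc2 was highest, and highest in A2, where Phc2 was lowest. The ratio of Phc2 to Phc3 therefore ran from 6.34 in A2 to 11.3 in A3, with a log2 difference of 2.98 ± 0.36 (mean ± SD, n = 6, exact paired permutation p = 0.03125), the largest SD of the 9 pairs. Over the 6 libraries, r between the log2 values of Phc2 and Phc3 was -0.985, a description of 6 points that share library preparation and scaling. What sets A3 and C2 apart in this ratio was not tested.

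All 9 pairs gave the same p, which is the smallest that 6 libraries allow in a two-sided exact test, and each was 0.03125 after Benjamini-Hochberg adjustment over the 9. Any pair with the same direction in all 6 libraries gets this p, whatever its SD. An error in the length model of a gene that all libraries share is not measured by it. The labels do not say that the libraries came from separate mice or cultures, so the test refers only to these libraries, of both genotypes together.

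The promoters of the most and least abundant PHC genes are shown as RefSeq gives them for GRCm38.p6, as the 250 bases before the annotated start, with each CG dinucleotide in capitals. CG reads the same on both strands and cannot overlap itself. Phc2 (chromosome 4, 128654702 to 128752881, plus strand) has 3 starts in that table, and the window of the outermost one, at chr4:128654452-128654701 on the plus strand, held 13 CG. Phc3 (chromosome 3, 30899371 to 30969415, minus strand) has 1 start, and its window, at chr3:30969416-30969665 on the minus strand, held 12 CG.
Phc2: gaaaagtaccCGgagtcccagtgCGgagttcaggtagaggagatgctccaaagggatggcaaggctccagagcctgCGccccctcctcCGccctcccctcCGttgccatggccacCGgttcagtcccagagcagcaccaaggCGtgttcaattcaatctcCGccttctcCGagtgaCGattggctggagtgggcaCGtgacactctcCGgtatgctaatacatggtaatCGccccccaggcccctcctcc
Phc3: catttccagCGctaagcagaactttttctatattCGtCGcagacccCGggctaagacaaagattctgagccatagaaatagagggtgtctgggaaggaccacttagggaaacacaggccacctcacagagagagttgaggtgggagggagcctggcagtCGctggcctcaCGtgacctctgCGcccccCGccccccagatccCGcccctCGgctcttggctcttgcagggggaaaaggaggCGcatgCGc
Phc2 mRNA was at least 6.34-fold that of Phc3 in every library, and any link to the CG number was not tested. The other Phc2 starts had 1 and 34 CG, and a gene-level FPKM does not say which start was used. Of 32851 such windows in the table, 92.1% held at least 1 CG, the median number was 6, and 31.5% held as many as the outermost Phc2 window or more. A window was found for 6 of the 7 members. Cbx6, Cbx7 and Cbx8 had 20, 23 and 22 CG, and Phc1 had 8. The Cbx8 window held more CG than those of Cbx6 and Phc2's outermost start. The Cbx7 window, 79932647 to 79932896, lies inside the gene in the GENCODE annotation, which puts the gene's end at 79971119.

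Set in 1 order by median FPKM, the 7 members ran Phc2, Cbx6, Phc1, Cbx2, Cbx7, Phc3, Cbx8. Phc2 was 2.36-fold to 2.99-fold above Cbx6 with no overlap. Cbx6 and Phc1 had no stable order: the ratio of Cbx6 to Phc1 ran from 0.948 to 1.23, with Phc1 the higher in A1, A2 and A3, Cbx6 the higher in C1 and C2, and both at 11.7 FPKM in C3. Phc1 exceeded Cbx2 in 6 of 6 libraries with overlapping ranges, by as little as 1.01-fold in C2. Cbx7 exceeded Phc3 in 5 of 6 libraries, the exception being A2, at 0.703-fold.

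Within the whole table, Phc2 stood at a median percentile of 89.6 among all gene symbols, counting from the lowest FPKM. Cbx6, Phc1 and Cbx2 stood at 76.9, 76.3 and 74.4. Cbx7, Phc3 and Cbx8 stood at 63.0, 62.3 and 56.6. Among the 10302 symbols at 1 FPKM or more in every library, Phc2 was at percentile 77.3 and Cbx8 at 5.30, so Cbx8 was near the floor of what that filter keeps. All 7 members passed it.

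Of the 7 members, 6 were lowest in A2 and 5 were highest in A3, where 40.1% and 31.7% of the 10302 filtered symbols had their lowest and highest value. Phc3 went the other way in both. In A2, the log2 level minus the gene's own median was -0.56 for Cbx2, -0.46 for Cbx7 and -0.37 for Cbx6, while over the filtered symbols the median of this difference was -0.06. In A3 the difference was 0.45 for Cbx8, 0.28 for Cbx7, 0.27 for Phc1 and -0.43 for Phc3, with a median of 0.03 over the filtered symbols. Scaled to the same sum, 5 members were lowest in A2 and 5 highest in A3, with C2 the lowest for Phc1 and Phc3. Scaled to the same upper quartile, 6 were lowest in A2 and 3 highest in A3. A2 was also the library with the lowest summed pro-B markers, at 1435 FPKM, and the highest summed myeloid markers, at 4779 FPKM, and their part in these values was not tested. A3 had 2070 and 2644 FPKM for the same lists. Over the 6 libraries the members spanned 1.20-fold to 1.69-fold, with a median of 1.49-fold, against a median of 1.32-fold over the filtered symbols. By this measure 13.5% of filtered symbols varied more than Cbx7, 14.0% more than Cbx2 and 78.7% more than Phc2.

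**Figure D3:**
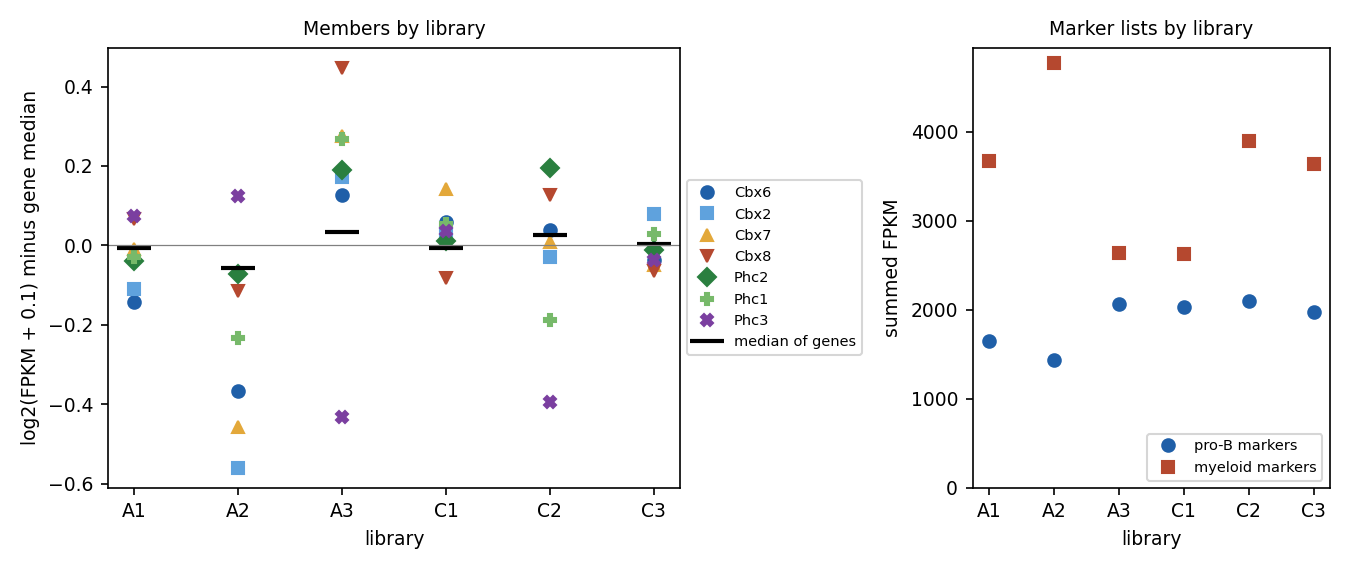
Left, log2(FPKM + 0.1) of each member minus its own median, by library, with the median over 10302 filtered genes as a bar. Right, summed FPKM of the 11 pro-B and 6 myeloid markers in the same libraries. Cbx2 in A2 is at -0.56 and Phc3 in A3 at -0.43.

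Among 22 PRC1 genes, made up of the 7 members and a list of 15 partners, Phc2 had the highest median level. It was followed by the catalytic subunit Rnf2 at 20.2 FPKM and by Bmi1, the PCGF protein of canonical PRC1 best known in blood stem cells, at 19.8 FPKM. The paralogs of these partners were lower, Ring1 at 6.34 FPKM and Pcgf2 at 2.01 FPKM. Cbx6, Phc1 and Cbx2 held ranks 8, 10 and 11. Cbx7, Phc3 and Cbx8 held ranks 17, 18 and 20 and lay near Pcgf1, a subunit of variant PRC1, at 4.32 FPKM, and near Pcgf2.

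Variant PRC1 has no Polycomb CBX subunit and no PHC subunit. Of its genes, Kdm2b, which binds unmethylated CpG islands, had a median of 16.9 FPKM, Yaf2 13.5, Pcgf5 12.7, L3mbtl2 12.5, Rybp 9.61, Pcgf3 7.36 and Pcgf6 6.96 FPKM. Of the SAM-domain relatives of the PHC proteins, Scmh1 was at 11.6 FPKM, Scml4 at 1.04 FPKM and Scml2 at 0.0425 FPKM. Of the 15 partners, 13 were at 1 FPKM or more in every library. The lowest library was A2 for 8 of these 13, against 40.1% of all symbols that passed this filter.

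**Figure D4:**
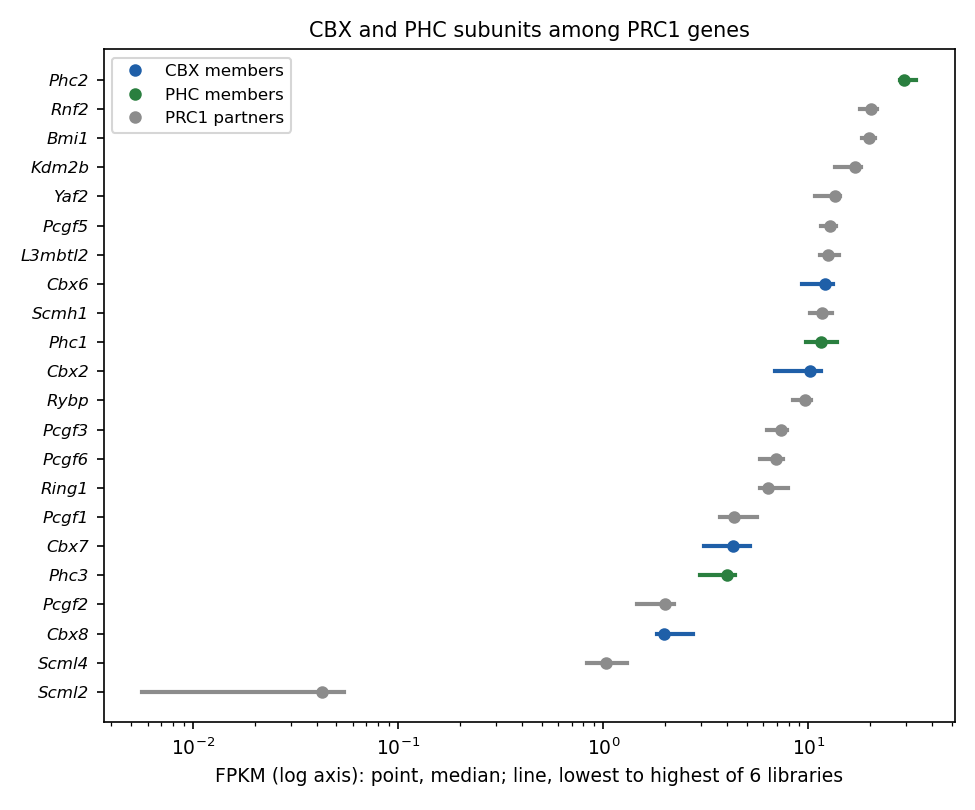
Lowest, median and highest FPKM (log axis) over 6 libraries for the 7 CBX and PHC members and 15 PRC1 partners, ordered by median. Phc2 is at the top at 29.2 FPKM, and Cbx8 at 1.98 FPKM is above only Scml4 and Scml2.

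The HP1 paralogs Cbx1, Cbx3 and Cbx5 have the same kind of chromodomain but read trimethylated lysine 9 of histone H3. Their median levels were 53.4, 197 and 36.0 FPKM, each above the median of every member. By name, Cbx3 has 8 pseudogenes in the GENCODE annotation, with which its reads could be shared, and none of the 7 members has one. Pseudogenes under other names were not counted. Cbx5 at its lowest, 29.6 FPKM in C2, was above the highest value of any CBX member. In that library it lay below Phc2, at 33.5 FPKM.

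For each member, the gene whose log2 level over the 6 libraries was most like it was found among the filtered symbols. These were Gpsm1 for Cbx2 (r = 0.9997), Herpud1 for Cbx6 (r = 0.9977), Rbm39 for Cbx7 (r = 0.9973), Slc25a10 for Cbx8 (r = 0.9995), Gtf2i for Phc1 (r = 0.9985), Gm16378 for Phc2 (r = 0.9975) and Clcn5 for Phc3 (r = 0.9966). Of 10301 symbols compared, between 256 for Phc3 and 937 for Cbx6 had an r of 0.9 or more over these 6 points. Among the members themselves, Cbx2, Cbx6 and Cbx7 had pairwise r of 0.933 to 0.948, and these values share the low library A2. Phc3 had a negative r with each of the other 6.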

How the data were processed

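Per the labels' protocols, total RNA of 6 pro-B cultures went through Illumina's TruSeq preparation and HiSeq sequencing. The authors deposited FPKM values in a matrix of 23021 rows, read here with rows of the same symbol summed. Per the submitters' processing notes the tools were FastQC, Bowtie2, TopHat2 2.0.7 and Cufflinks 2.0.0, with the builds mm9 and GRCm38, and the notes give no role for either build. Cufflinks estimates can divide reads between overlapping models, and no source used here states read totals, so the depth behind each value is unknown. The columns name the passage, an unexplained letter and a number. All were used as passage 1 libraries with no genotype, so the planned genotype test with limma was not run.

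Differences between members of a family were taken within a library on log2(FPKM + 0.1) and tested with an exact paired permutation test (all 64 sign assignments, two-sided), with Benjamini-Hochberg adjustment over 9 pairs at a threshold of 0.05. Calculations used Python 3.11.15, numpy 2.4.6 and pandas 2.3.3 and were tested on simulated data. The members, gene lists and tests were chosen with earlier results of this series known. Genes named beside the members are the listed PRC1 and HP1 genes, genes that overlap a member, markers, and the gene most like each member by Pearson r. Some genes of these lists are not reported here. Alternatives were another pseudocount, scaling, duplicate handling, a filter, each column letter alone and each library left out.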

Additional observations from a re-analysis of the deposited data

Results flagged for a closer look

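The share of Phc2 in the summed PHC FPKM was 71.9% in library C2, apart from the other 5 libraries, of which the next highest was A3 at 66.5%. The gap to that value was 0.754 of the whole range, above Dixon's 95% critical value of 0.625 for 6 samples. Of 16 quantities examined in this way, 1 was flagged, where chance flags about 1 in 20 groups. In C2, Phc2 was at 33.5 FPKM, its highest, while Phc1 was at 10.0 FPKM and Phc3 at 3.03 FPKM, each its second lowest. The summed myeloid markers were at 3902 FPKM in C2, second to A2, and their part in this share was not tested.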

How the results depend on the processing

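The order of the genes within a family was the same in all 6 libraries, so the direction and the exact p of the 9 differences could not change with the pseudocount, and leaving out libraries could not change the order. With a pseudocount of 1 or 0.01 FPKM the size of the differences changed alone. Each member had 1 row, so taking the highest row per symbol in place of the sum left its values as they were. These alternatives therefore say nothing about stability. With 5 libraries the smallest possible p is 0.0625, so those fits are values with no test. The median share of Cbx8 was 6.64% in the C libraries alone and 8.42% in the A libraries alone, against 7.68% over all 6. Leaving out 1 library at a time moved the ratio of the highest to the lowest library over a range of 1.22 to 1.67 for Cbx2, 1.21 to 1.41 for Cbx6 and 1.26 to 1.69 for Cbx7, each lowest without A2, and of 1.19 to 1.50 for Cbx8 and 1.22 to 1.42 for Phc1, each lowest without A3. Among genes of at least 1 FPKM in every library, the median percentiles fell, as fewer low genes are counted, to 44.0 for Cbx2, 49.4 for Cbx6, 19.2 for Cbx7, 5.30 for Cbx8, 48.1 for Phc1, 77.3 for Phc2 and 17.6 for Phc3. The ratio of the highest to the lowest library ran over the members from 1.20 to 1.69 as deposited, from 1.13 to 1.60 with libraries scaled to the same sum and from 1.17 to 1.61 with the same upper quartile. No analysis of the genotypes paired by replicate number was possible, because no column was tied to a genotype, and the genotype test and its alternatives were not run. The depth is unknown, so no counting error can be given for low genes such as Cbx8.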
